A study of Mus musculus with 6 samples.

Results

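The genes described here encode amino acid transporters of 7 solute carrier (Slc) families, Slc1, Slc3, Slc6, Slc7, Slc36, Slc38 and Slc43, without Slc7a1, Slc7a2 and Slc7a11. They were chosen by symbol among probe sets that the array's annotation ties to 1 gene, with the probe set of the highest mean over the 6 arrays standing for each gene. This gave 59 genes of 19938 measured, and 36 of the 59 were bright enough to be tested. Because the choice was by name, it also holds carriers of other small molecules, among them monoamines (Slc6a2, Slc6a3, Slc6a4), creatine (Slc6a8), taurine (Slc6a6) and nucleobases (Slc43a3).

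Expression was read on 1 Affymetrix array per mouse from splenic cells labelled as MDSCs (myeloid-derived suppressor cells), a mixed population of the myeloid lineage able to restrain T cells. The recipients were lethally irradiated B6D2F1/J mice given T cell depleted marrow of B6 mice, a parent-into-F1 transplantation. Both groups received intraperitoneal injections on alternate days, of PBS in 3 mice and of 1.5 mg/kg rapamycin in the other 3, and spleens were taken on day 10. Rapamycin inhibits the kinase complex mTORC1, and the comparison asks which genes differed in these cells between the 2 treatments of the mice. The activity of mTORC1 in the sorted cells was not measured on these arrays. The labels state that spleen cells of B6 mice were or were not given with the marrow, without tying either to single mice, and they give neither age nor sex. The cells were taken with magnetic beads against CD11b alone, so the sample can hold neutrophils, monocytes and macrophages in any mix. CD11b itself (Itgam) stood at 12.39 ± 0.08 with PBS and 12.27 ± 0.04 with rapamycin (log2, mean ± SD, n = 3 each), and the neutrophil marker Ly6g at 12.29 ± 0.09 and 11.99 ± 0.30.

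Amino acid transporters set how fast a cell can take up, exchange or recover amino acids, and several of them inform mTORC1, the kinase complex that couples amino acid supply to growth. At the cell surface, light chains of the Slc7 family pair with the heavy chain Slc3a2 to exchange large neutral amino acids, while Slc1 and Slc38 carriers use the sodium gradient to import glutamine, alanine and serine. On the lysosome, Slc36 and Slc38 carriers return amino acids from degraded protein to the cytosol, and Slc38a9 reports lysosomal arginine to mTORC1. The transcription factor ATF4, which responds to amino acid shortage and to mTORC1, is known to drive several of these genes.

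Rapamycin-treated mice showed 3 transporters higher and 2 lower than PBS-treated mice. The rises were all in the Slc38 family and were small, with Slc38a9 1.26-fold, Slc38a2 1.25-fold and Slc38a7 1.23-fold higher. The falls were larger, 1.58-fold for both the betaine carrier Slc6a12 and the Slc36 family carrier Slc36a4. Slc7a5, Slc3a2 and Slc1a5, which form the main surface route for leucine and glutamine in dividing lymphocytes, did not pass the test. Genes were called with limma at a Benjamini-Hochberg adjusted p under 0.05 over 13965 tested genes. The 5 calls were 13.9% of the 36 tested transporters, and 11.3% of all tested genes were called. Higher calls were 8.33% of the transporters against 4.42% of all genes, and lower calls 5.56% against 6.92%. The median log2 change of the 36 was 0.017 and that of all tested genes -0.017, with median absolute changes of 0.075 and 0.090. As a set, the transporters were called at about the rate of other genes.

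**Figure D1:**
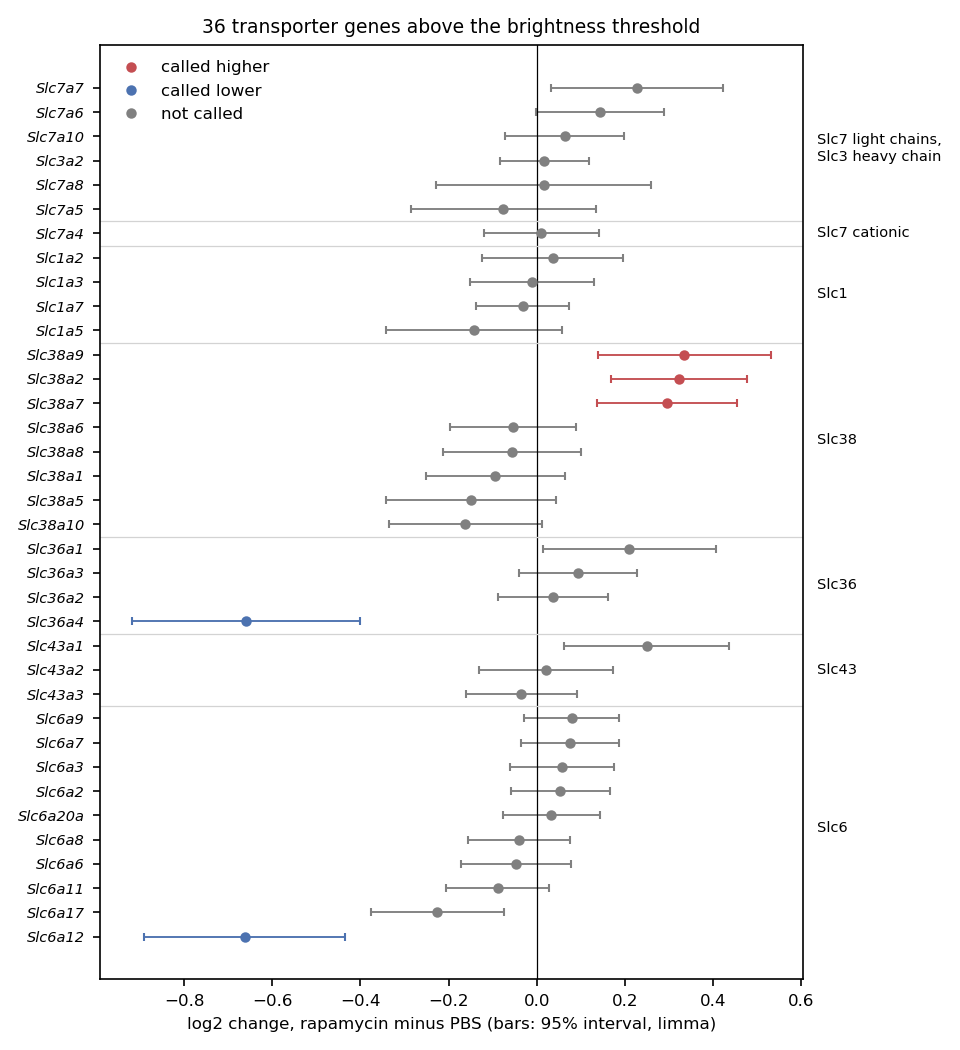
Log2 change (rapamycin minus PBS, x axis) of the 36 tested transporter genes, grouped by family, with limma's 95% intervals from 3 arrays per group. The 3 genes called higher are all in the Slc38 family, Slc36a4 and Slc6a12 lie near -0.66, and the other 31 lie between -0.23 and 0.25.

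Of 11 measured Slc38 genes, which carry small neutral amino acids, 8 were tested. Of these 3 rose and the other 5 missed the threshold. The higher calls were 37.5% of the 8, against 4.42% of all tested genes, while the median log2 change of the 8 was -0.055. Slc38a2, the plasma membrane carrier SNAT2 that cells induce when amino acids run short, had log2 values of 10.24, 10.38 and 10.36 with PBS. With rapamycin they were 10.65, 10.56 and 10.75, so all of those arrays were above all PBS arrays. The log2 change was 0.32 ± 0.07 (SE, limma adjusted p 0.0264). Slc38a7, the lysosomal glutamine exporter SNAT7, stood at 7.03, 7.04 and 6.96 with PBS and at 7.40, 7.17 and 7.34 with rapamycin. Its groups did not overlap either, and the change was 0.30 ± 0.07 (limma adjusted p 0.0368).

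Slc38a9, the arginine-sensing carrier that works with the Rag GTPases on the lysosome, had PBS values of 8.25, 8.23 and 8.12. Its rapamycin values were 8.63, 8.35 and 8.63, with replicate 2 closest to the PBS arrays. The change of 0.34 ± 0.08 was called near the threshold (limma adjusted p 0.0452). Slc38a9 has a second, dimmer probe set, on which the change was 0.13 ± 0.07 with overlapping groups (limma adjusted p 0.301 when every named probe set was tested). The dimmer one alone would not have been called. Averaged over the pair, the change was 0.23 and was called (limma adjusted p 0.046).

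The other tested Slc38 genes differed by between -0.16 and -0.054. Slc38a1, the SNAT1 carrier of glutamine and alanine, had different outcomes on its 2 probe sets. The brighter averaged 9.20 ± 0.09 with PBS and 9.10 ± 0.09 with rapamycin (SD, n = 3), a change of -0.094 ± 0.067 that did not pass the test (limma adjusted p 0.406). The dimmer gave 5.74, 5.71 and 5.70 with PBS and 5.20, 4.95 and 5.27 with rapamycin, so that all rapamycin arrays were lower. Its change was -0.58 ± 0.08 (limma adjusted p 0.0137 among every named probe set), and with the mean of both probe sets Slc38a1 was called lower. Which transcripts each probe set reads was not tested.

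Among the 4 Slc36 genes, Slc36a4 fell and the other 3 did not pass the test. That single lower call was 25% of the 4, against 6.92% of all tested genes. Slc36a4, the carrier PAT4 of proline and tryptophan, had log2 values of 6.17, 6.17 and 6.36 with PBS. They were 5.33, 5.72 and 5.67 with rapamycin, with replicate 1 the lowest. The change was -0.66 ± 0.11 (SE, limma adjusted p 0.0151). Slc36a1, the carrier PAT1 that exports small amino acids from lysosomes, pointed the other way. Its values were 8.50, 8.59 and 8.37 with PBS and 8.85, 8.62 and 8.62 with rapamycin. The groups were just apart, and the change of 0.21 ± 0.08 did not pass the test (limma adjusted p 0.150, with a 95% interval from 0.014 to 0.41).

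**Figure D2:**
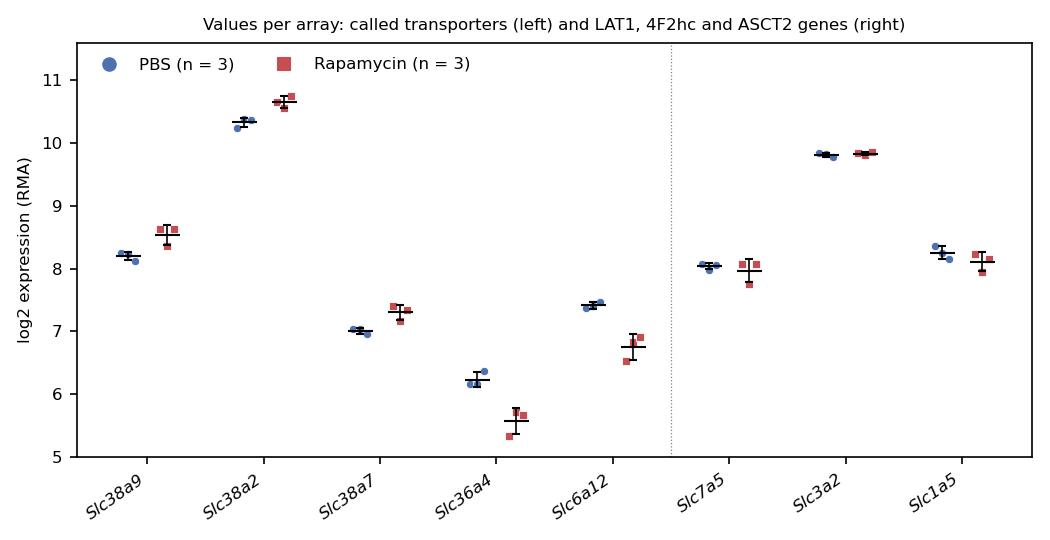
Log2 expression on each array (y axis) of the 5 called transporters (left of the dotted line) and of Slc7a5 (LAT1), Slc3a2 (4F2hc) and Slc1a5 (ASCT2), with group means and SD, n = 3 each. The groups do not overlap for the 5 called genes and do for the other 3.

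The promoters of the 4 called Slc38 and Slc36 genes and of Slc36a1 are shown because these are the carriers of neutral amino acids that differed, and a paralogue that pointed the other way. Each sequence runs from 250 bases before to 50 bases after a RefSeq transcription start on GRCm38.p6, 5′ to 3′ on the gene's strand. Capitals mark CACGTG, the E-box read by Myc and by the lysosomal regulator TFEB. The other motif searched, TGATGNAA, is the core of the C/EBP-ATF response element, which ATF4 reads together with a C/EBP partner. Both strands were searched, on which CACGTG reads the same, and the motifs can share only a TG or CA at their ends. Slc38a2 is at chr15:96699679-96699978 (minus strand), Slc38a7 at chr8:95853442-95853741 (minus), Slc38a9 at chr13:112660516-112660815 (plus), Slc36a1 at chr11:55204090-55204389 (plus) and Slc36a4 at chr9:15709488-15709787 (plus).
Slc38a2: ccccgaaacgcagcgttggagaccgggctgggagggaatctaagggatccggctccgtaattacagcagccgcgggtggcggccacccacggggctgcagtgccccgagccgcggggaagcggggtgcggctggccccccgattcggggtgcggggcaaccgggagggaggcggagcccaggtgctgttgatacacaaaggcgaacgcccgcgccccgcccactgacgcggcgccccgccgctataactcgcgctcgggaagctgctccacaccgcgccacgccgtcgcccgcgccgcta
Slc38a7: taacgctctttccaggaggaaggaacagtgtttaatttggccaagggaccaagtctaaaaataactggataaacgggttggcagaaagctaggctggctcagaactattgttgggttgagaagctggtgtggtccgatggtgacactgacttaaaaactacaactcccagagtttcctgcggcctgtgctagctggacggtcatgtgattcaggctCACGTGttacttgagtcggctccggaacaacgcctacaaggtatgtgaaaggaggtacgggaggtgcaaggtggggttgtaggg
Slc38a9: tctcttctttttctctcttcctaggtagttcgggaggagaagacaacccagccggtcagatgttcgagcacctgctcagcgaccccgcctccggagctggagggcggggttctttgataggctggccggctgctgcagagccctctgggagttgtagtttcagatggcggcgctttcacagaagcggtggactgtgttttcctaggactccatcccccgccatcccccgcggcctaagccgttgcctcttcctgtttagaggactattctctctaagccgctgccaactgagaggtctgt
Slc36a1: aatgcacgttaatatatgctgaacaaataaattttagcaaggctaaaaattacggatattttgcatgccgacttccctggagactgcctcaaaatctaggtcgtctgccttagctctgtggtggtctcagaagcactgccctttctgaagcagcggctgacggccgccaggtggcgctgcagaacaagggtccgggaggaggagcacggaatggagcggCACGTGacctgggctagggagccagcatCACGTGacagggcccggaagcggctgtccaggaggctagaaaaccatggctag
Slc36a4: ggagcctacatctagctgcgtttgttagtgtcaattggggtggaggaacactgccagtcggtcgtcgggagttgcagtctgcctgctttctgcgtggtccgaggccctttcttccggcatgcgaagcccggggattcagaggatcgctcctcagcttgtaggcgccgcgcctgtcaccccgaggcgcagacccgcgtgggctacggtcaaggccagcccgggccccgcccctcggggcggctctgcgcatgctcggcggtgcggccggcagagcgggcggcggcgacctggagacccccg

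Slc38a7 held 1 CACGTG, whose first base lies at -34 from the start site, and Slc36a1 held 2, at -31 and -3. In the windows of Slc38a2, Slc38a9 and Slc36a4 neither motif was found. Sequence outside the windows, such as introns farther downstream, was not searched, so these genes cannot be said to lack either motif. Of the 59 transporters, 43 were matched to at least 1 window in the RefSeq table. Slc7a5, Slc1a5, Slc7a3 and Slc38a1 were among those without a window, so neither motif could be looked for in them. CACGTG was in a window of 9 of these 43 genes (20.9%) and in 8.09% of all 27025 genes of the table. Besides Slc38a7 and Slc36a1 the holders were Slc43a1, Slc38a5, Slc1a6, Slc1a7, Slc6a3, Slc6a16 and Slc7a14. Slc38a7 was the only holder among the called transporters. TGATGNAA was in 3 of the 43 (6.98%), Slc1a4, Slc6a21 and Slc7a7, against 4.51% of all genes. Some genes have several windows, such as Slc6a12 and Slc7a7 with 5 each. A match is a description of the letters in these windows, and binding was not measured.

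Of 20 measured genes of the sodium- and chloride-coupled Slc6 family, 10 were tested, Slc6a12 fell and 9 did not pass the test. The lower call was 10% of the tested Slc6 genes, against 6.92% of all tested genes. Slc6a12, the carrier BGT1 of betaine and GABA, had the lowest adjusted p among the transporters. Its log2 values were 7.37, 7.40 and 7.47 with PBS and 6.52, 6.82 and 6.90 with rapamycin. The highest rapamycin array was well below the lowest PBS array, and the change was -0.66 ± 0.10 (SE, limma adjusted p 0.0105). Slc6a17, a vesicular carrier of neutral amino acids best known in neurons, was close to the brightness threshold of 4.72. It stood at 5.01, 5.01 and 5.02 with PBS and at 4.71, 4.93 and 4.72 with rapamycin, a change of -0.23 ± 0.06 (limma adjusted p 0.0668). The taurine carrier Slc6a6, also an osmolyte carrier, differed by -0.047 ± 0.053, and the glycine carrier Slc6a9 by 0.079 ± 0.046.

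None of the 6 tested light and heavy chains of the Slc7 and Slc3 families was called, and 1 of them, Slc7a7, was under an unadjusted p of 0.05. Of all tested genes 11.3% were called, and with 6 genes no call cannot be told from that share. Slc7a5, the light chain LAT1 for leucine and other large neutral amino acids, had values of 8.07, 7.98 and 8.06 with PBS and 8.07, 7.75 and 8.07 with rapamycin. Only rapamycin replicate 2 stood below the PBS range. The change was -0.075 ± 0.090 (SE, limma adjusted p 0.627), with a 95% interval from -0.29 to 0.14. Its heavy chain Slc3a2 (CD98) gave 9.84, 9.82 and 9.78 with PBS and 9.84, 9.80 and 9.85 with rapamycin. That change, 0.018 ± 0.043, had a 95% interval from -0.083 to 0.12, so a change of more than about 0.12 in either direction lies outside it (limma adjusted p 0.824).

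Slc7a7, the light chain y+LAT1 that exchanges cationic for neutral amino acids and is abundant in macrophages, gave 7.46, 7.39 and 7.41 with PBS. With rapamycin it gave 7.76, 7.74 and 7.46, where the third array lay within the PBS range. The change was 0.23 ± 0.08 (limma adjusted p 0.125), and without rapamycin replicate 3 it was 0.32 and called (limma adjusted p 0.0201). Slc7a6, the related light chain y+LAT2, differed by 0.14 ± 0.06, and Slc7a8 (LAT2) by 0.016 ± 0.104. The 1 tested gene of the cationic branch, Slc7a4, differed by 0.011 ± 0.055.

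In the Slc1 family of glutamate and neutral carriers 4 of 7 genes were tested and none was called or was under an unadjusted p of 0.05. For so few genes this too cannot be told from the 11.3% called among all tested genes. Slc1a5, the glutamine importer ASCT2, had values of 8.36, 8.25 and 8.16 with PBS and 8.23, 7.95 and 8.15 with rapamycin. The groups overlapped, and the change was -0.14 ± 0.09 (limma adjusted p 0.319, with a 95% interval from -0.34 to 0.058). The glutamate carriers Slc1a2 and Slc1a3 differed by 0.036 and -0.010. Of the 3 Slc43 facilitators, Slc43a1 (LAT3), a carrier of branched-chain amino acids, differed most. It stood at 5.17, 5.33 and 5.10 with PBS and 5.50, 5.33 and 5.53 with rapamycin, where replicate 2 met the PBS range. The change was 0.25 ± 0.08 (limma adjusted p 0.0887), and Slc43a2 and Slc43a3 differed by 0.022 and -0.035.

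The remaining 24 tested transporters, each under 0.25 in size and at an unadjusted p of 0.05 or more, differed by between -0.16 and 0.14. For 19 of them the 95% interval lay within 0.25 of 0 on both sides. Over the 36 tested genes the SD within a group of 3 arrays had a median of 0.069 and reached 0.21. The 23 genes below the brightness threshold had means between 3.36 and 4.67. They include the ATF4 targets Slc1a4 and Slc7a3, the intestinal and renal carriers Slc6a19 and Slc7a9 and the heavy chain Slc3a1. In a fit of all 19938 genes their lowest limma adjusted p was 0.262, and at this signal a change cannot be told from background. Of 7 transporters listed as ATF4 targets, 5 were tested: Slc38a2 rose, and Slc6a9, Slc1a5, Slc7a5 and Slc3a2 did not pass the test. That higher call was 20% of the 5, against 4.42% of all tested genes. With 5 genes, 1 call cannot be told from that share.

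Single arrays weighed on these calls. The 3 arrays of one group lay apart from the 3 of the other for 9 of the 36 tested transporters (25%), against 32.0% of all tested genes. In 7 of the 9 the rapamycin array nearest the PBS mean was replicate 2. When any one PBS array was left out, 0 of the 3 higher calls held. They were also lost when the array of rapamycin replicate 1 was left out, and when that of replicate 3 was left out the single higher call was Slc7a7 instead. In the fit lacking rapamycin replicate 2 all 3 held, and Slc6a17 was called lower besides. Slc36a4 lost its call when any one PBS array was left out (limma adjusted p up to 0.0688), and Slc6a12 when PBS replicate 2 or 3 was (up to 0.0623). Both kept it when any one rapamycin array was left out. Each such fit had 5 arrays and called fewer of all genes, from 6.92% lower and 4.42% higher down to 0.437% and 0.372% without PBS replicate 2. No direction of the 5 called genes changed.

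**Figure D3:**
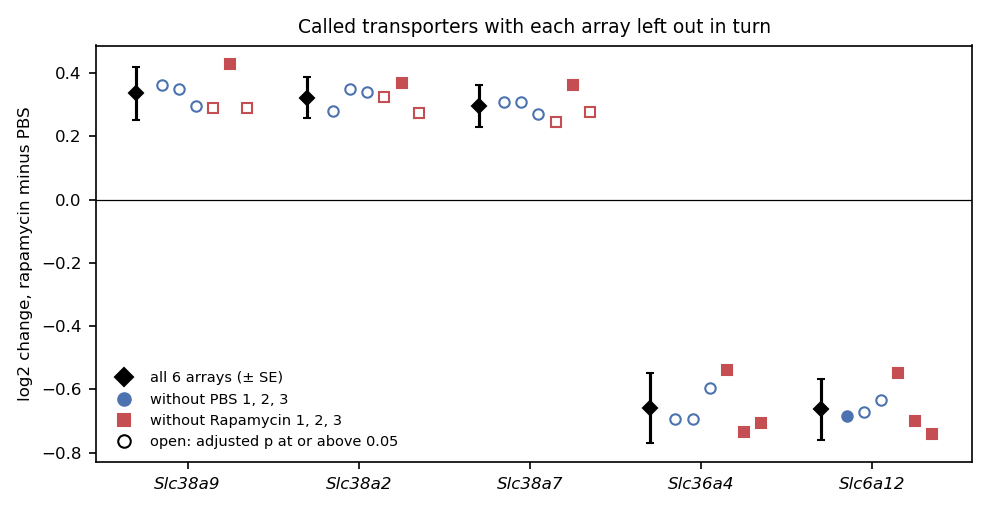
Log2 change (y axis) of the 5 called transporters with all 6 arrays (diamonds, ± SE) and with each array left out in turn (circles for PBS, squares for rapamycin, in the order of replicates 1 to 3). Open symbols had an adjusted p of 0.05 or more: Slc6a12 kept its call in 4 of 6 fits, Slc36a4 in 3, and the Slc38 genes in 1 each.

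**Figure D4:**
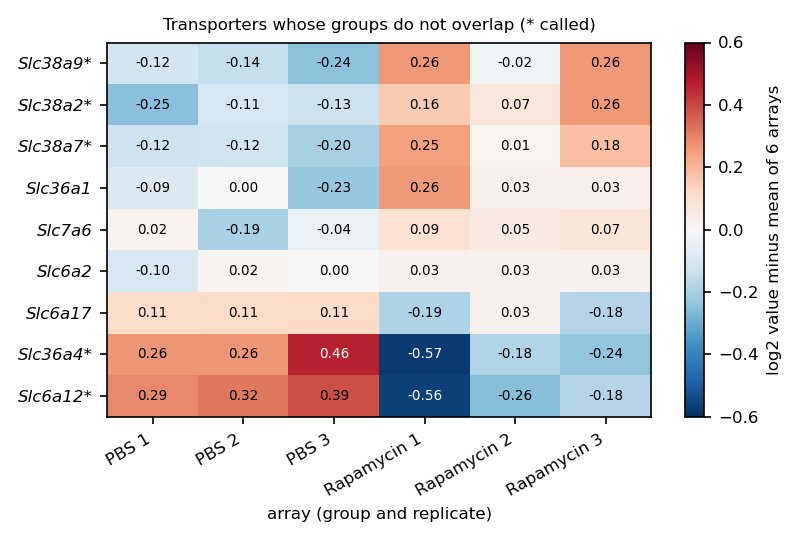
Log2 values on each array (x axis) minus the gene's mean over 6 arrays, for the 9 tested transporters whose groups do not overlap, with asterisks on the 5 called. Rapamycin replicate 2 is the palest rapamycin column for most rows, and replicate 1 the darkest for Slc36a4 and Slc6a12.

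Genes that work with these transporters were also read. Of 18 tested amino acid and peptide carriers outside the set, 4 rose and the other 14 missed the threshold, at a median log2 change of -0.0047. The higher calls were 22.2% of this list and 4.42% of all tested genes. The cystine importer Slc7a11 changed by 0.74 ± 0.09 (SE), the arginine importer Slc7a2 by 0.70 ± 0.17, the lysosomal peptide and histidine carrier Slc15a4 by 0.38 ± 0.05, and Slc66a1, which exports cationic amino acids from lysosomes, by 0.35 ± 0.08. Limma's adjusted p was 0.00726, 0.0418, 0.00754 and 0.0360. Of this list 0 were called with PBS replicate 2 left out, 3 with PBS replicate 3 left out and 2 with any one of the other arrays left out. Slc7a11 and Slc15a4 each kept the call in 5 of these 6 fits, Slc66a1 in 1 and Slc7a2 in 0.

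Of 19 tested genes on a list of ATF4 and its targets other than transporters, 4 rose and 3 fell, at a median of -0.054. These were 21.1% and 15.8% of the list, against 4.42% and 6.92% of all tested genes. Atf4 itself rose by 0.22 ± 0.04 (SE), Atf3 by 0.55 ± 0.07 and the partner factor Cebpg by 0.36 ± 0.06. The asparagine synthetase Asns fell by 1.01 ± 0.12 on the log2 scale. Limma's adjusted p was 0.0230, 0.00770, 0.0177 and 0.00739. Nupr1, a stress-induced chromatin protein, rose by 0.27, and the serine pathway enzymes Psat1 and Shmt2 fell by 0.32 and 0.24. The other 12 genes of the list were not called, at changes from -0.39 (Phgdh) to 0.19 (Aldh18a1). Among them Ddit3, Trib3 and Chac1 differed by -0.054, -0.046 and -0.048. Called genes of this list thus moved both ways in these cells. The transporter Slc38a2, listed as an ATF4 target, rose, and a part of ATF4 in its change was not tested. In the list, leaving out PBS replicate 2 gave 1 higher and 0 lower. Leaving out PBS replicate 1 or 3, or the first rapamycin array, gave 1 and 1. Leaving out the second rapamycin array gave 2 and 2, and the third 3 and 1.

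A list of amino acid sensing genes held the lysosomal machinery to which Slc38a9 belongs and cytosolic genes such as Castor2, Bmt2, Sesn3 and Eif2ak4. Of its 29 tested genes, 1 rose and 6 fell, at a median of -0.087. These were 3.45% and 20.7% of the list, beside the same 4.42% and 6.92%. The Ragulator subunit Lamtor5 rose by 0.36 ± 0.04 (SE), and its partner Lamtor2 fell by 0.23 ± 0.04. The GTPase Rraga fell by 0.33 ± 0.06 and the folliculin partner Fnip1 by 0.31 ± 0.06. Limma's adjusted p was 0.00770, 0.0182, 0.0231 and 0.0264. Castor2, Bmt2 and Sesn3 fell by 0.21, 0.22 and 0.21. With the medians of the tested genes aligned 3 fell rather than 6, 8 fell after a repeated quantile normalization and likewise with the medians of whole arrays aligned, and with 1 array left out between 0 and 2 fell. The count was 0 in the fits lacking PBS replicate 2, PBS replicate 3 and the second rapamycin array, 1 in that lacking the first rapamycin array, and 2 in the others.

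Markers of myeloid cells and of other cell types that the sort could hold were also read. Calls in either direction made up 11.3% of all tested genes. They were 30% of the tested T and NK markers, 23.1% of the myeloid and 20% of the dividing-cell markers. For platelet, B and plasma cell and erythroid markers they were 16.7%, 14.3% and 11.1%, from 1 call each and near the share of all genes. For T and NK cells, 3 of 10 tested markers fell (Il2rb by 0.43, Cd3g by 0.39 and Cd8a by 0.27 on the log2 scale), 0 rose, and the mean log2 level of the 10 ran from 5.51 to 5.63 with PBS and from 5.24 to 5.36 with rapamycin. Cd3d, Cd28, Ncr1, Klrb1c and Gzma were below the brightness threshold. For erythroid cells, the anion exchanger Slc4a1 rose by 0.64 ± 0.09 and 8 of 9 tested markers did not pass the test. Their mean level ran from 5.42 to 5.46 with PBS and from 5.52 to 5.60 with rapamycin. Of 7 tested B and plasma cell markers Cd79b fell by 0.32, with mean levels of 6.09 to 6.15 and 6.07 to 6.20. Cd79a, Ms4a1, Pax5 and Jchain were below the threshold. Of 6 platelet markers Itgb3, also an integrin of macrophages, fell by 0.46 (mean levels 5.91 to 5.99 and 5.87 to 5.97), with Pf4 and Ppbp below the threshold. Among 13 myeloid markers Cd14 rose by 1.15, Cd68 rose by 0.83 and Ccr2 fell by 0.34, at mean levels of 11.14 to 11.25 with PBS and 11.26 to 11.32 with rapamycin. Of 15 genes of dividing cells Mcm5, Mcm3 and Rrm2 fell and 0 rose (9.32 to 9.36 and 9.27 to 9.33). Few of these marker calls held with 1 array left out. Cd14 kept its call in 6 of 6 such fits, Cd68 and Slc4a1 in 5 (not with PBS replicate 2 left out) and Il2rb in 4 (not with PBS replicate 2 or 3 left out). Cd79b kept it in 2, those lacking the second or the third rapamycin array. Cd3g and Itgb3 kept it only with PBS replicate 1 left out, and Rrm2 only with the third rapamycin array left out. Ccr2, Cd8a, Mcm5 and Mcm3 lost it in all 6. The part of these shifts in the transporter values was not tested. In such mixed samples, fewer cells of a type and less RNA per cell cannot be told apart.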

How the data were processed

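Total RNA of CD11b-selected spleen cells was labelled in a whole-transcript sense target assay, per the labels' protocols. The authors deposited log2 expression values per probe set, made with RMA in Affymetrix Expression Console, per the submitters' processing notes. RMA subtracts background and makes array distributions equal, so a shift of most genes one way would be removed. Values ran from 2.71 to 14.2, with array medians of 5.42 to 5.46, and no further normalization was applied. Arrays have no depth; with 3 per group their number limits the precision.

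GEO's annotation of the platform gave gene names. Of 35556 probe sets, 21789 had 1 symbol, 1621 several and 12146 none. A gene was tested if its mean reached log2 4.72, the 30th percentile over probe sets with a name. The test was limma 3.58.1 under R 4.3.3 (lmFit, eBayes, 2-sided, Benjamini-Hochberg over 13965 genes). The fit was checked on simulated data. Figures used matplotlib 3.10.9. Promoter sequences are RefSeq's, GRCm38.p6. No batch or date is given, and no array coordinates are printed.

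The transporters called, and Slc7a5, Slc3a2, Slc1a5, Slc38a2 and Slc38a9 in any case, were to be given with each array's value. Others with a log2 change of at least 0.25 or an unadjusted p under 0.05 were to be named with their changes, and of each further list up to 4 members with the largest moderated statistic. Genes named beyond this rule were chosen after their values were seen. Members and lists were chosen with earlier results of these data known. The alternatives were other brightness filters, normalizations, probe set rules, variance models, array weights, a block on the replicate number, and fits lacking 1 array each.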

Additional observations from a re-analysis of the deposited data

How the results depend on the processing

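The numbers of transporters called, 3 higher and 2 lower, were each between 2 and 4 in the 10 alternatives that kept all 6 arrays. Alignment of the medians of the tested genes was chosen after seeing the data. It gave 4 higher, with Slc43a1 added, and 875 genes higher and 707 lower overall against 617 and 967. Slc6a17 was added to the lower calls after quantile normalization again and with all array medians aligned, and Slc38a1 with the mean of probe sets. Slc38a9 was not called without the brightness filter or with all array medians aligned. With 1 array left out, higher calls ran from 0 to 3 and lower calls from 0 to 3, in fits that had fewer samples. Slc3a2 changed sign near 0, at -0.013 after quantile normalization again and -0.0060 with all array medians aligned, and Slc7a5 ran from -0.13 to 0.030 with 1 array left out, the latter without rapamycin replicate 2. With the replicate block the counts were 3 higher and 2 lower. Deviations of same-numbered arrays correlated at 0.26, 0.010 and 0.046 across genes, and those of differently numbered arrays at -0.19 to 0.14. With 3 arrays per group these values cannot settle whether the numbers mark pairs. The main fit did not take them as pairs. Signals near the brightness threshold (Slc6a17, Slc43a1 and the 23 dim genes) limit what can be seen.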

Other observations

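Carriers of the lysosomal membrane were looked at together after the values of Slc38a9 and Slc38a7 had been seen, so their counts are a description. Of 11 such carriers, of amino acids, peptides, nucleosides and sialic acid, 4 were called higher (Slc38a9, Slc38a7, Slc66a1 and Slc15a4) and Slc36a4, also found on other intracellular membranes, was called lower, in the same limma fit. These are 36.4% and 9.09% of the 11, against 4.42% and 6.92% of all tested genes. The list was drawn up with the values in hand, and Slc38a9 and Slc38a7 prompted it. Its share is therefore partly set by the choice and gives no support of its own. Slc38a9, Slc38a7 and Slc66a1 each kept the call in 1 of the 6 fits lacking an array, Slc36a4 in 3 and Slc15a4 in 5. The histidine and peptide carrier Slc15a4 had the tightest values, 7.66 ± 0.01 with PBS and 8.04 ± 0.05 with rapamycin (log2, mean ± SD, n = 3 each). Slc36a1 and the nucleoside carrier Slc29a3 had groups that did not overlap, with log2 changes of 0.21 and 0.28 that did not pass the test. The sialic acid exporter Slc17a5 pointed the other way, also with groups that did not overlap, by -0.24, and did not pass it either. The cystine exporter Ctns differed by 0.078, the peptide carrier Slc15a3 by -0.067 and Mfsd12, needed for cysteine import, by -0.11.

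Slc6a12 and Slc6a6 take up osmolytes, so other genes of osmolyte handling were read, likewise after seeing the values. Of 5 measured, Slc6a12 was the 1 called. That lower call was 20% of the 5, against 6.92% of all tested genes. Because Slc6a12 itself prompted the list, this share is set by the choice and gives no support of its own. The inositol importer Slc5a3 differed by 0.075, the factor Nfat5 by 0.25 and the chaperone Hspa4l by -0.066, none past limma's threshold.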
